A study of Homo sapiens with 6 samples.

Results

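The 5 genes described here are FTH1 and FTL, which encode the heavy and light chains of ferritin, the protein shell that stores iron, TFRC, which encodes the transferrin receptor that takes up iron, and ACO1 and IREB2, which encode the iron regulatory proteins IRP1 and IRP2. They were chosen by symbol. All 5 have a row among the 8121 genes of the translational efficiency table, and 4 have one among the 9570 transcripts of the ribosome occupancy table, in which no row carries the symbol IREB2. The study sequenced 3 libraries of ribosome protected fragments (RPFs) and 3 libraries of total RNA from HEK293, a human embryonic kidney cell line, each labelled as treated with a control siRNA and numbered 1 to 3. Cells were treated before lysis with cycloheximide, which halts elongating ribosomes. Lysates also contained it and were digested with RNase I. There is a single condition, in which iron was not varied, so each gene is set against the other genes of the same libraries and against the other 4.

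Cells balance iron uptake and storage through mRNA hairpins called iron-responsive elements. When iron is scarce, IRP1 and IRP2 bind these hairpins. In the 5′UTR of a ferritin mRNA the bound protein keeps the small ribosomal subunit from joining the mRNA, and in the 3′UTR of the transferrin receptor mRNA it shields the message from decay. When iron is plentiful, IRP1 takes up an iron-sulphur cluster and acts as an aconitase, IRP2 is degraded by a ubiquitin ligase that contains FBXL5, and ferritin mRNAs are translated.

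The hairpins were looked for as a C, any 5 bases, the loop CAGTGN and 5 bases that pair in reverse order with the first 5, on the mRNA strand only, in GENCODE transcripts on GRCh37. Of 72408 annotated 5′UTR sequences 71 (0.0981%) hold such a match, and of 56477 3′UTR sequences 211 (0.374%) do. Counted by gene, 38 of 19264 (0.197%) hold one in a 5′UTR and 142 of 19284 (0.736%) in a 3′UTR. A match is a match of letters and was not tested for protein binding. The ferritin mRNAs each have a match in the 5′UTR, TFRC has 4 in the 3′UTR and ACO1 and IREB2 have 0 in either. These are counts of matches and not of elements, since an element that departs from the pattern is missed. The matches are shown because some of the RPFs described below lie on the first pair of them. Capitals mark the C and the loop, written in DNA letters from 5′ to 3′, with 6 bases on each side of the 17-base match.
FTH1, exon 1 of 4, minus strand, chr11:61735046-61735074: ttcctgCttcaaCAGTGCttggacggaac
FTL, exon 1 of 4, plus strand, chr19:49468592-49468620: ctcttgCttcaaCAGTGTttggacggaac
TFRC match 1, exon 19 of 19, minus strand, chr3:195777850-195777878: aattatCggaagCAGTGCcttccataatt
TFRC match 2, exon 19 of 19, minus strand, chr3:195777446-195777474: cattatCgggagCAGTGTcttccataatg
TFRC match 3, exon 19 of 19, minus strand, chr3:195777381-195777409: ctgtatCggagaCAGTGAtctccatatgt
TFRC match 4, exon 19 of 19, minus strand, chr3:195777334-195777362: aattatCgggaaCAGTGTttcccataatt
The FTH1 match runs from base -171 to base -155 before the start codon, and the FTL match from -167 to -151. In TFRC the matches begin 941, 1345, 1410 and 1457 bases after the stop codon. FTH1 lies on chromosome 11 from 61727190 to 61735106, FTL on chromosome 19 from 49468566 to 49470136, TFRC on chromosome 3 from 195739382 to 195809024, ACO1 on chromosome 9 from 32384601 to 32454767 and IREB2 on chromosome 15 from 78729773 to 78793795.

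Translational efficiency, here the RPF signal of a gene relative to its total RNA, was lowest for FTL and highest for TFRC, with FTH1 and ACO1 near the middle of all genes. The deposited table gives it for each replicate, and the median over all genes was 0.383. Each gene was tested against that median with limma over all 8121 genes, on log2(ratio + 0.01). TFRC and IREB2 were higher and FTL was lower, at an FDR of 0.05. Over all genes 44.7% were called higher and 44.6% lower, so being called is common, and 3 called of 5 is no more than the background. Ratios are taken over a whole culture, in which fewer cells translating an mRNA and less translation per cell cannot be told apart.

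FTL had a translational efficiency of 0.0716, 0.110 and 0.0858 in replicates 1, 2 and 3. The mean was 0.0891 ± 0.0193 (SD, n = 3), which is 0.232 times the median gene and at the 5.49th percentile. On the log2 scale FTL differed from the median by -2.01 (SE 0.11), with a limma adjusted p of 3.57e-05. Every replicate of FTL lay below every replicate of the other 4 genes. The efficiencies of both ferritins are uncertain, since their coding sequences are shared in part with pseudogenes.

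FTH1, the other ferritin chain, had 0.378, 0.462 and 0.429, with a mean of 0.423 ± 0.0420 (SD, n = 3) at the 53.9th percentile. Its replicates lay around the median gene, and the log2 difference of 0.13 (95% interval -0.05 to 0.32, limma adjusted p = 0.128) did not pass the threshold. Without replicate 1, the lowest of the 3, FTH1 was called higher (log2 difference 0.21, adjusted p = 0.0443). Within each replicate the FTH1 ratio was 4.21 to 5.29 times the FTL ratio.

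TFRC had 1.30, 1.13 and 1.42, with a mean of 1.28 ± 0.144 (SD, n = 3) at the 85.3rd percentile. This is 3.35 times the median gene, a log2 difference of 1.71 (SE 0.08, limma adjusted p = 1.53e-05). TFRC was above each of the other 4 genes in every replicate.

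IREB2, for which there is no occupancy row, had 0.944, 0.928 and 0.857, the narrowest spread of the 5 relative to its mean. The mean was 0.909 ± 0.0460 (SD, n = 3), 2.37 times the median gene, at the 77.4th percentile, with a log2 difference of 1.22 (SE 0.05, limma adjusted p = 1.48e-05). ACO1, which encodes the other iron regulatory protein, had 0.389, 0.398 and 0.446. Its mean of 0.411 ± 0.0308 (SD, n = 3) lay at the 52.7th percentile, and its log2 difference from the median, 0.10 (95% interval -0.06 to 0.25, limma adjusted p = 0.188), did not pass the threshold. IREB2 stood at 1.92 to 2.43 times ACO1 within each replicate.

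**Figure D1:**
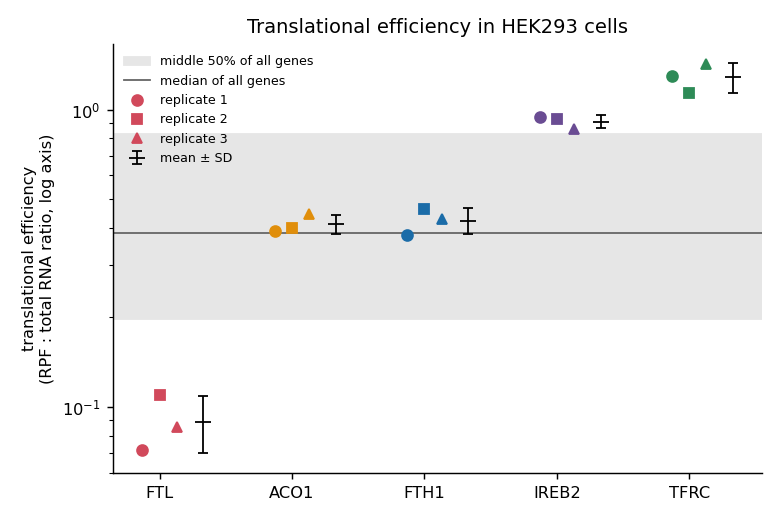
Translational efficiency (RPF to total RNA ratio, log axis) of the 5 genes in replicates 1 to 3, with the mean ± SD beside them, the median of all 8121 genes as a line and the middle 50% of genes as a band. FTL lies below the band, FTH1 and ACO1 overlap each other near the line at means of 0.423 and 0.411, and IREB2 and TFRC lie above the band.

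The order of the mean levels was therefore FTL, ACO1, FTH1, IREB2 and TFRC. Of the 10 pairs of genes, 9 had replicate values that did not overlap, with the same sign in each of the 3 replicates. ACO1 and FTH1 overlapped, and FTH1 was the higher in 1 of the 3 replicates. Over all pairs of genes 90.2% did not overlap, so 9 of 10 is the usual outcome. IREB2 and TFRC, the closest pair that did not overlap, differed by 0.49 on the log2 scale, and TFRC was 1.22 to 1.66 times IREB2 within a replicate. Between ACO1 and FTH1 the log2 difference was 0.04 with an SD of 0.15 between replicates (n = 3). An exact two-sided permutation test of 3 values against 3 cannot go below 0.1, which each of the 9 pairs reached (0.111 adjusted over the 10 pairs), and gave 0.8 for ACO1 and FTH1.

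By Euclidean distance over the 3 replicates on the log2 scale, the genes most like FTH1 were NUDCD1 (0.03) and SAYSD1 (0.03). Those nearest to TFRC were FAHD2B (0.05) and C14orf37 (0.07). ACO1 was nearest to C12orf65 (0.03) and HAUS1 (0.03), and IREB2 to C14orf2 (0.03) and MRPL3 (0.04). The genes nearest to FTL lay at larger distances, AC093323.3 (0.14) and TRIM65 (0.15). With 3 values a gene, these distances describe similar levels.

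The occupancy table gives in-frame RPFs for each codon, normalised for library size, divided by the abundance of the transcript in total RNA, and combined over the replicates. Within each of the 4 mRNAs each value above 0 could be written in a single way as whole numbers of 3 fixed amounts, or steps, to within 1e-11 of the value. The steps are the worth of 1 read in each replicate and give the in-frame reads behind the values. The steps carry no replicate number and were not assigned to one by their size, so the replicates are called A, B and C within an mRNA, in order of rising step. FTH1 had 4304 reads (1764, 1660 and 880 in A, B and C), FTL 1481 (600, 602 and 279), TFRC 48604 (21189, 15801 and 11614) and ACO1 5280 (2337, 1707 and 1236). Shares and floors from these numbers cover counting error only.

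A read on FTL was worth less than a read on any of the other 3 mRNAs, because its values are divided by a larger abundance. Summed over the 3 replicates, the reciprocals of the steps put FTL mRNA at 6.13 times FTH1, 4.18 times TFRC and 43.4 times ACO1, per unit of length. The abundances of both ferritins are uncertain, since their coding sequences are shared in part with pseudogenes. Only 1.12% of the 9570 transcripts had a smallest value below that of FTL.

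Mean CDS occupancy per codon was 0.0733 for TFRC, 0.0703 for ACO1, 0.0381 for FTH1 and 0.00201 for FTL. Recovered replicates ranged from 0.0707 to 0.0756 for TFRC and from 0.0658 to 0.0765 for ACO1, which overlap. FTH1 ranged from 0.0327 to 0.0409 and FTL from 0.00161 to 0.00248, each apart from the other 3 mRNAs. Among all transcripts these means lay at the 72.7th percentile for TFRC, the 71.0th for ACO1, the 41.9th for FTH1 and the 0.329th for FTL. FTL was at the low end on both measures, but the gap to FTH1 differed, at 4.21 to 5.29 times in translational efficiency and 18.98 times in mean CDS occupancy. ACO1 was near TFRC per codon while its translational efficiency was lower than that of TFRC in every replicate.

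**Figure D2:**
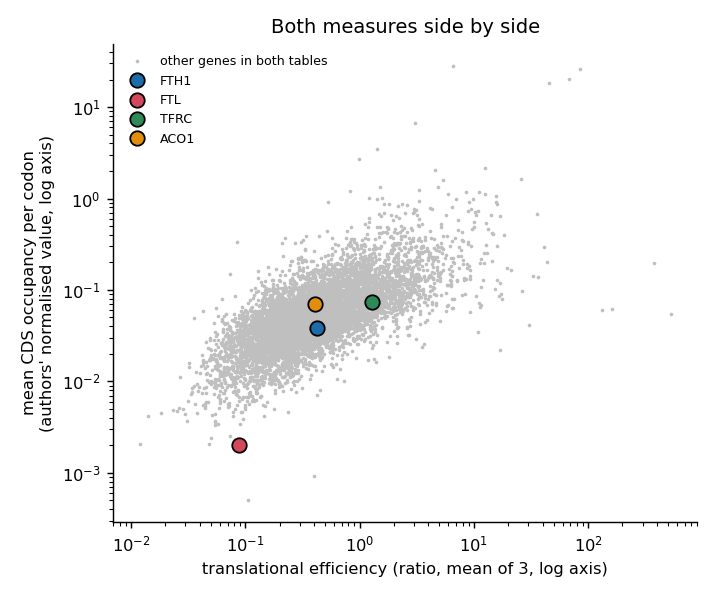
Mean CDS occupancy per codon (log axis) against translational efficiency (mean of 3 replicates, log axis) for the genes in both tables, with FTH1, FTL, TFRC and ACO1 as large points. FTL sits below most genes of similar translational efficiency, at 0.00201 per codon, and ACO1 and FTH1 share a translational efficiency near 0.4 at occupancies of 0.0703 and 0.0381.

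Over the 6912 genes in both tables the measures had a Spearman coefficient of 0.688, a description across genes that share libraries. Both ferritin coding sequences resemble processed pseudogenes, and the placing of reads with several matches is not described in the methods read here. Of the 30-base stretches of the FTH1 CDS 90.2% are also found in another gene's transcripts. The share is 58.5% in FTL, 0% in TFRC and ACO1 and 0.629% in IREB2. The ferritin values are therefore uncertain, in CDS occupancy, in translational efficiency and in the mRNA abundance taken from the steps. At FTL codons whose 30-base fragment occurs in no other gene (71 codons) the mean occupancy was 0.00174, against 0.00180 at the 95 codons whose fragment does. The same means in FTH1 were 0.0236 over 17 codons and 0.0408 over 157. Codons whose fragment crosses an edge of the CDS, the start codon among them, are in neither group.

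Within the coding sequences the RPFs were spread over most codons. The share of codons without a read was 9.46% in TFRC, 14.7% in FTH1, 29.5% in FTL and 32.2% in ACO1, against a median of 43.4% over all transcripts. The highest codons of FTH1, with their letters in the reference, were 18 (GAG), 87 (AAG) and 175 (ACC), with 149, 142 and 142 reads and 6.11 to 6.33 times the CDS mean. In FTL they were 172 (CTC), 8 (AAT) and 131 (GAG), at 6.85 to 7.98 times its mean with 52 to 56 reads each. TFRC peaked at codons 31 (GGC), 124 (TGG) and 574 (AAG), with 708 to 799 reads each and 11.2 to 12.7 times its mean. ACO1 peaked at codons 71 (CAC), 147 (TTT) and 86 (CAG), and codon 71 had 122 reads, 21.4 times its mean. Between pairs of replicates the reads per codon had Pearson coefficients of 0.942 to 0.967 in TFRC, 0.898 to 0.945 in FTH1, 0.810 to 0.867 in ACO1 and 0.724 to 0.843 in FTL, in order of the number of reads apart from FTH1 and ACO1.

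**Figure D3:**
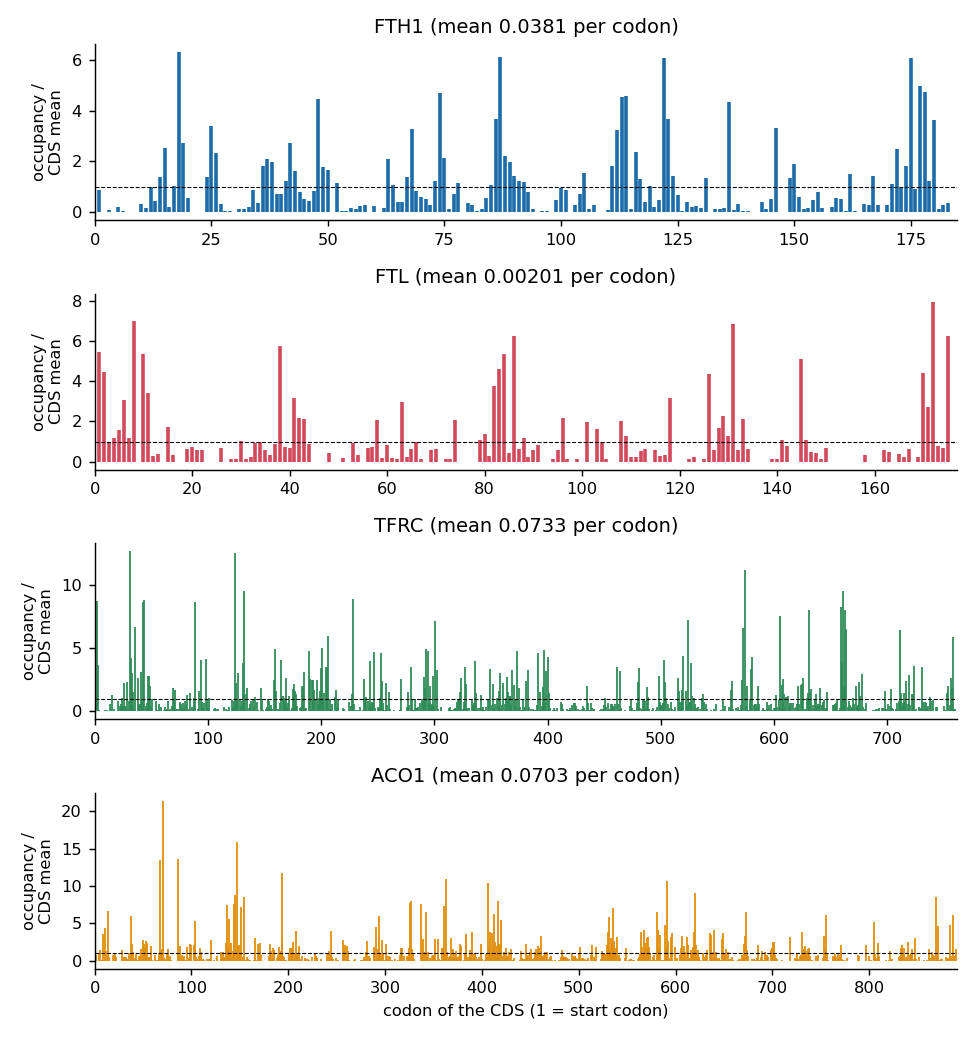
Ribosome occupancy at each codon of the CDS of FTH1, FTL, TFRC and ACO1, divided by the CDS mean (dashed line at 1), replicates combined. Peaks reach 6.33 times the mean in FTH1, 7.98 in FTL, 12.7 in TFRC and 21.4 in ACO1.

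From the first to the last 75 codons, occupancy was lower at the end in TFRC (ratio of first to last 1.69, 1.62 to 1.74 over the replicates) and in ACO1 (1.80, 1.45 to 2.31). Among 8809 transcripts with a CDS of at least 150 codons the median ratio was 0.991. TFRC lay at the 74.4th percentile of these and ACO1 at the 76.8th. FTH1 had a ratio of 0.858 (0.793 to 0.958) and FTL 1.104 (1.01 to 1.28). With windows of 30 codons the TFRC ratio was 1.13 and the ACO1 ratio 0.734, so the direction in ACO1 depends on the window. With the CDS cut into 4 equal parts, 34.1% of FTL reads lay in the first part and 21.2% to 22.6% in each of the others, while FTH1 ranged from 22.9% to 28.3%. In TFRC codons 382 to 571 held 16.4% of reads and the other parts 26.7% to 29.4%. ACO1 had 31.5% in the first part and 16.5% in the last.

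At the start of the coding sequence FTL and FTH1 differed. In FTL the start codon had 17, 14 and 9 reads, 5.47 times the CDS mean, and the second codon 30 reads in all. FTH1 had 21 reads at the start codon (5, 15 and 1 in A, B and C), 0.853 times its mean, and 0 at the second. TFRC had 3 reads at its start codon and 559 at the second, 8.70 times its mean. ACO1 had 4 and 0. No stop codon of the 4 mRNAs had a read, and stop codons of other mRNAs were not examined for comparison.

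The 5′UTR held 11.5% of the in-frame reads of FTL (10.8% to 14.3% over the replicates, 171 reads). The share was 1.58% in FTH1 (1.48% to 1.63%, 68 reads), 0.148% in TFRC (0.129% to 0.177%, 72 reads) and 0.208% in ACO1 (0% to 0.342%, 11 reads). No replicate of FTL overlapped one of the other mRNAs. Per codon, 5′UTR occupancy was 0.376 times CDS occupancy in FTL, at the 89.2nd percentile of the 6905 transcripts with a 5′UTR of at least 34 codons and a CDS value above 0. The codon just before the start codon held 80 of the 171 FTL reads, and without the 5 codons on each side of that boundary the ratio was 0.222, while in the last 17 codons it was 0.806. FTH1 (0.0391), ACO1 (0.0333) and TFRC (0.0255) lay at or below the 46.6th percentile. Without the same codons TFRC had 0.00732, and over the last 17 codons the ratios were 0 in FTH1, 0.0660 in TFRC and 0.0940 in ACO1. The 5′UTR level of FTL itself, not divided by its CDS, lay at the 30.6th percentile, and its CDS mean at the 0.329th of all transcripts. What sets the ratio was not tested.

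In both ferritin mRNAs many of these upstream reads lay on the hairpin match. FTH1 had 55 of its 68 5′UTR reads (80.9%, 76.9% to 85.7% over the replicates) on codons whose first base lies in the match, which are 6 of 75 codons. They were 24, 21 and 10 in replicates A, B and C. The codon at -162 alone held 22, 15 and 9, at 1.98 times the CDS mean. The remaining 13 reads lay at -78, -75 and -72, so the 5′UTR of FTH1 was empty elsewhere in this frame.

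FTL had 57 of its 171 5′UTR reads (33.3%, 30.3% to 40.0%) on the match, which covers 5 of 63 codons, with 20, 21 and 16 in the 3 replicates. The codon at -159 held 10, 9 and 6 reads and that at -153 held 9, 12 and 5, at 3.46 and 3.56 times the CDS mean. The largest upstream value of FTL lay elsewhere, on the codon just before the start codon, with 33, 29 and 18 reads and 10.97 times the CDS mean. The other 34 reads were scattered between -150 and -6, with at most 6 on a codon.

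**Figure D4:**
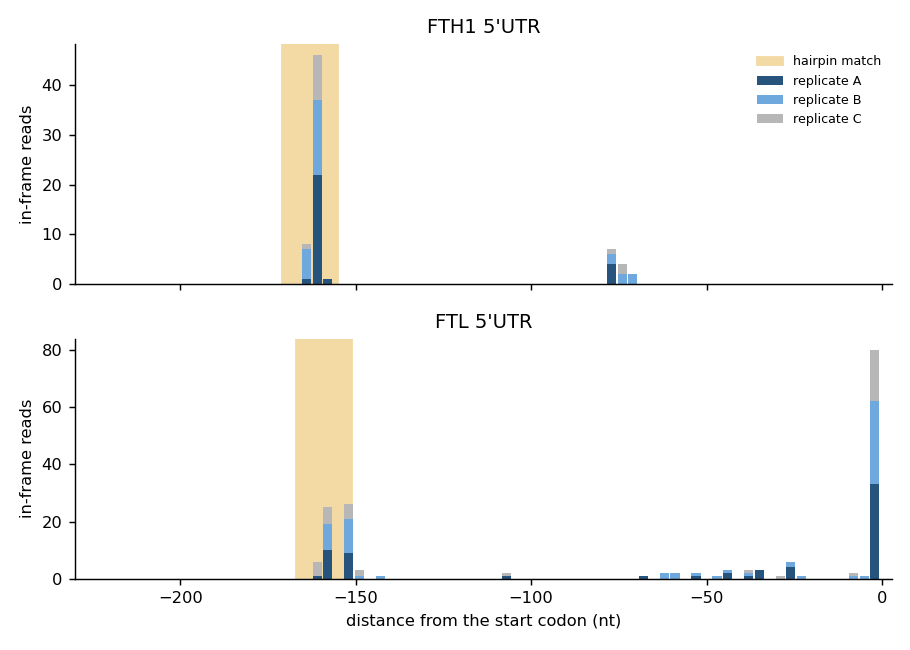
In-frame RPFs on 5′UTR codons of FTH1 and FTL by distance from the start codon (nt), stacked by replicate A, B and C, with the hairpin match shaded. In FTH1 the codon at -162 holds 46 of 68 reads, and in FTL the codons at -159 and -153 hold 25 and 26 of 171 and the codon at -3 holds 80.

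With an offset of 13 nt from the 5′ end, a fragment of 28 to 30 nt placed at -162 on FTH1 begins at -175 and ends at -148 to -146, and so covers the whole match. Placed at -159 on FTL it runs from -172 to -145 or -143 and also covers it. A fragment at -153 on FTL begins at -166, 1 base inside the match. Whether these fragments come from ribosomes was not tested. Positions were counted back from the start codon, and the 5′UTRs in the table (75 and 63 codons) differ in length from the reference transcripts (69 and 66). The FTL match shared no 30-mer with another gene, and 2 of the 14 that cover the FTH1 match occur in a pseudogene.

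To set these values against other mRNAs, occupancy at -168 to -150 was divided by the CDS mean in the 4561 transcripts with a 5′UTR of at least 60 codons. This window is the FTL match with 1 codon on each side, and was chosen after the reads on it were seen. The ranks of FTL and FTH1 in it are therefore a description and not a test. Its median was 0, 67.2% of transcripts had no value above 0 there, and 4.03% exceeded their CDS mean. FTL had 1.23, at the 96.9th percentile, and FTH1 0.337, at the 90.0th. Hairpin matches were also looked for in reference transcripts of the same gene with a CDS of the same length. A match was kept if its distance from the start codon lay within the 5′UTR length of the occupancy row. Of the 9570 transcripts 8 had such a match, both ferritin mRNAs among them. The match may lie in another isoform, and transcripts without a reference of equal CDS length were not searched. The mean over the codons of the match was 1.62 times the CDS mean in FTL and 0.393 in FTH1. Of the other 6 mRNAs 4 had no reads there and the highest reached 0.118. None of these 6 is among the genes of iron metabolism listed below. EPAS1, an mRNA with a described element and an occupancy row, was not among the 8. Whether a codon has a read also depends on depth, which was not compared.

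The 3′UTR carried few reads. TFRC had 1 read among 894 codons, at codon 435, and 0 on each of its 4 hairpin matches, whose place in the table rests on a reference 3′UTR of 886 codons. FTL had 3 reads in 58 codons. In FTH1 0 of 4304 reads lay in the 3′UTR, which allows a share of up to 0.0697%, and in ACO1 0 of 5280, which allows up to 0.0568%. The table holds no RPFs outside the reading frame of the CDS.

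Among 59 other genes of iron metabolism, 41 had a translational efficiency, of which 16 were higher than the median gene, 22 lower and 3 did not pass the test. Over all genes 44.7% were higher and 44.6% lower, so being called is as usual here as elsewhere, and the same shares stand as background to each list. Of 7 other mRNAs with a described iron-responsive element 3 were measured. EPAS1, a hypoxia-inducible transcription factor, was higher at 0.503 ± 0.0591 (SD, n = 3). CDC42BPA, a kinase, was lower at 0.0871 ± 0.00590, near FTL. TFR2 and FTMT, relatives of TFRC and of the ferritins, have no row in this table.

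In the turnover of the iron regulatory proteins 4 of 5 genes were measured, with 2 higher, 1 lower and 1 not past the threshold. FBXL5, which senses iron and marks IRP2 for degradation, was lower at 0.108 ± 0.00845 and lay below IREB2 in every replicate. RBX1, a subunit of the same ligase, had the highest value of the 41 at 8.10 ± 0.190. Of 16 genes of iron uptake and handling 8 were measured and all 8 were called, 3 higher and 5 lower, from STEAP3, an iron reductase, at 0.126 ± 0.0141 to PCBP1, an iron chaperone, at 6.49 ± 0.689. NCOA4, which delivers ferritin for degradation, was lower at 0.221 ± 0.0109.

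In haem synthesis 7 of 8 genes were measured, with 1 higher, 5 lower, 1 not past the threshold and a median of 0.175. Its lowest was UROS, at 0.134 ± 0.0155, and its highest CPOX, at 1.04 ± 0.0960. In iron-sulphur cluster assembly 19 of 23 genes were measured, of which 9 were higher, 9 lower and 1 did not pass. NUBP2, a cytosolic assembly factor, was lowest at 0.0333 ± 0.00263 and LYRM4, a partner of the cysteine desulphurase NFS1, highest at 5.41 ± 0.355. The median of the 41 genes was 0.273, against 0.383 over all genes.

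**Figure D5:**
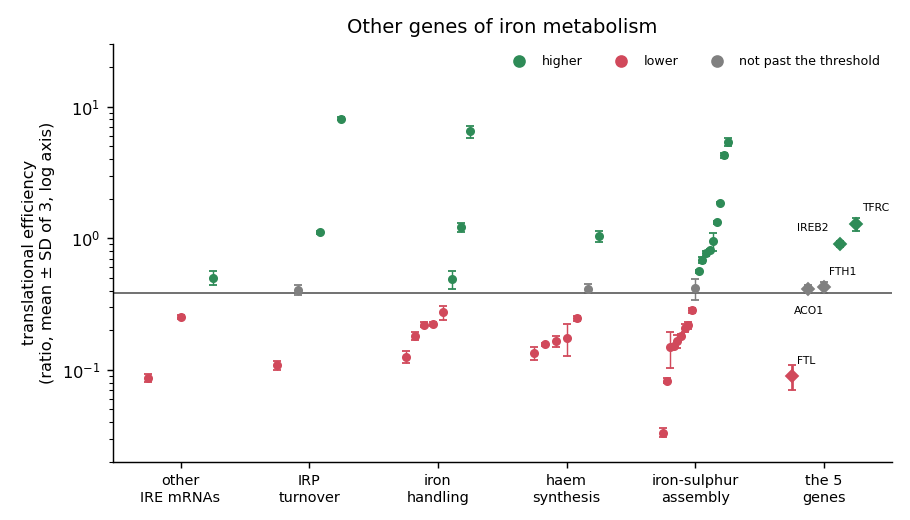
Translational efficiency (ratio, mean ± SD of 3 replicates, log axis) of 41 other genes of iron metabolism by list and of the 5 genes, with the median of all genes as a line and calls by limma in colour. FTL (0.0891) and CDC42BPA (0.0871) lie together near the low end, and the assembly list spans 0.0333 to 5.41.

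The cells were checked against markers. VIM, NEFL, NEFM, INA, CDH2 and KRT18, 6 of 7 genes listed for HEK293, had an occupancy row and PAX2 had none. By the reciprocal of the smallest value, their mRNA abundance lay at the 97.6th to 98.1st percentile for VIM, NEFL and NEFM, the 79.1st for KRT18, the 42.6th for CDH2 and the 4.43rd for INA. Of 5 markers of other cells only COL1A1 had one, at the 0.465th percentile.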

How the data were processed

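RPFs and total RNA came from the same lysates. Per the labels and the study's methods, the authors trimmed reads (Cutadapt 1.16), removed duplicates by molecular identifiers, aligned RPFs of 28 to 30 nt to the hg19 transcriptome (Bowtie 1.1.2) with an offset of 13 nt and counted total RNA with HTSeq 0.9.1, versions as in the submitters' processing notes. These notes name TopHat2 2.1.1 and the methods Hisat2 for total RNA. The deposited translational efficiency is a linear ratio, and the sources used here do not give its formula. The tables hold no library totals, and those in the study's methods were not used. In the deposited occupancy table, 31 transcripts with lists broken over lines were rejoined, and 30 damaged codons were left out.

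With limma 3.58.1 (R 4.3.3), log2(ratio + 0.01) of each gene was set against the median of all values, with no filter on low values and Benjamini-Hochberg adjustment over 8121 genes at an FDR of 0.05. The methods describe the procedure as done in triplicate and do not say whether from separate cultures, and p-values measure the spread between these samples. Pairs of genes were compared by exact permutation tests (scipy 1.17.1). Sequences and positions come from GENCODE 44 on GRCh37, the build of hg19.

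The 5 genes, the lists and the rule for named genes were chosen with earlier results of these data known. The rule took the 5 genes, their closest relatives, mRNAs with a described element, FBXL5, NCOA4, the highest and lowest gene of each other list, the 2 nearest genes of each of the 5, and the 3 highest codons. Values of another gene under this rule are not reported here.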

Additional observations from a re-analysis of the deposited data

How the results depend on the processing

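TFRC, IREB2 and FTL kept their direction and call under every alternative run (adjusted p up to 0.000213), and 3 of the 5 genes were called throughout, except for 4 without replicate 1. With the replicate block, in which the median of each replicate is removed, 3 were again called. Differences within replicates had the same sign throughout in 9 pairs. This number could not be lower, since values that do not overlap always give the same sign. Overlap is the same on the linear scale, so the 9 pairs there are no separate check. Paired signs of 3 replicates cannot give a p below 0.25. Centred on the mean of the log2 values, FTH1 and ACO1 moved to the other side of the centre without a call (-0.0320 and -0.0699). Leaving out each replicate gave log2 differences of 0.06 to 0.21 for FTH1 and 0.05 to 0.13 for ACO1. The median over codons lowered CDS occupancy to 0.0156 in FTH1, 0.000757 in FTL, 0.0276 in TFRC and 0.0229 in ACO1, in the order TFRC, ACO1, FTH1, FTL. In the last 17 codons only, the ratio of 5′UTR to CDS was 0 in FTH1, 0.806 in FTL, 0.0660 in TFRC and 0.0940 in ACO1. Without the codons around the start it was 0.222 in FTL and 0.00732 in TFRC. Windows of 30 codons gave ratios of 0.723 for FTH1, 1.48 for FTL, 1.13 for TFRC and 0.734 for ACO1. Leaving out each recovered replicate, the 5′UTR share of reads was 1.55% to 1.61% in FTH1, 10.9% to 12.1% in FTL, 0.134% to 0.157% in TFRC and 0.102% to 0.272% in ACO1. The share on the hairpin match, an alternative set chosen after seeing the data, was 77.5% to 82.9% in FTH1 and 31.3% to 35.2% in FTL, and with 1 more codon on each side 80.9% and 35.1%. With 11 upstream reads, ACO1 is limited by depth.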
